A study of Mus musculus with 12 samples.

Results

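The 10 genes described here are Mtm1, Dnm2, Bin1, Mtmr14, Ptpla and Speg, which are linked to centronuclear myopathy, and Mtmr1, Mtmr2, Mtmr3 and Mtmr4, further members of the myotubularin family. They were taken by gene symbol and make up 10 of the 23923 genes in the files, each present once in all 12 libraries. A tibialis anterior library, from a fast muscle of the lower leg, was sequenced per mouse at an age of 6 weeks. There were 12 animals, divided equally into controls and Smyd1 conditional knockouts (CKOs), so n = 6 in each group. The product of Smyd1 adds methyl groups to lysines and is found in heart and skeletal muscle. The control genotype was Myf6 cre/+; Smyd1 flox/+ and the CKO genotype was Myf6 cre/+; Smyd1 flox/-, both on a C57BL6/J;129S1/SvImJ background and, by the study's methods, both with 1 Rosa26 YFP reporter allele. Cre was thus present in both groups, and where it acts a control keeps 1 Smyd1 allele and a CKO none. The study states that its experiments after the histology used male tissue only. It is made from the Myf6 gene and acts in differentiated myofibers from around birth, so cells of other types in a CKO muscle keep their floxed allele and carry the germline null allele beside it. The measurements ask whether the levels of these genes differed between the muscles with and without myofiber Smyd1.

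Centronuclear myopathies are inherited muscle diseases in which nuclei lie in the centre of the myofiber, and many of their genes act on membranes, above all at the triad, where a T-tubule meets the calcium store. Myotubularins are phosphatases that take the phosphate at the third position off phosphoinositides, the lipids that mark endosomes. Dynamins cut membrane necks, BAR-domain proteins such as Bin1 bend membranes into tubules, Ptpla (now called Hacd1) makes very-long-chain fatty acids and Speg is a kinase of the triad.

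All 6 phosphatases carry the active-site signature of their class, a Cys and an Arg with 5 residues between them. Its 21 coding bases are shown because they encode the signature that these 6 genes share whatever the level of each gene. They were taken from GENCODE M21 transcripts (GRCm38, a later build than the mm9 of the files), with the Cys and Arg codons in capitals, 5′ to 3′ on the coding strand.
Mtm1: TGCagtgacggatgggacAGG
Mtmr1: TGCagtgatgggtgggatCGA
Mtmr2: TGCagtgatggatgggatCGC
Mtmr3: TGCtccgatggctgggatCGG
Mtmr4: TGCtctgacggctgggacCGT
Mtmr14: TGTatctcaggctgggacCGG

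The Mtm1 signature lies in exon 11 of 15 at chrX:71299637-71299657 (plus strand) and that of Mtmr1, also on the X chromosome, in exon 11 of 15 at chrX:71401797-71401817 (plus strand). The others are at chr9:13799945-13799965 in Mtmr2 (plus strand, exon 11 of 15), chr11:4492779-4492799 in Mtmr3 (minus strand, exon 12 of 18), chr11:87604102-87604122 in Mtmr4 (plus strand, exon 12 of 19) and chr6:113265993-113266013 in Mtmr14 (plus strand, exon 11 of 19). The search required Gly and Trp codons at fixed places between the Cys and the Arg. Part of each count of shared bases was therefore set by the search. The signatures of Mtmr1 and Mtmr2 were the closest pair, identical at 19 of 21 bases. Mtm1 and Mtmr2 shared 17 of 21 bases, as did Mtmr3 and Mtmr4, whereas Mtmr14 shared 12 to 14 with each of the other five.

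Values are FPKM, fragment counts that the authors divided by transcript length and by the library's mapped total before depositing them. They are given as mean ± SD over 6 mice, and P-values measure the spread between these mice. The number of reads is unknown. Relative depth, read from the lowest FPKM, ran from 0.984 in CKO 5 to 1.77 in CKO 1 with control 1 set at 1. FPKM as deposited were higher in CKOs for most genes, with a median log2 difference of 0.18 over the 12695 genes tested. After each library was divided by a median-ratio size factor (0.855 to 1.11 in controls, 1.03 to 1.15 in CKOs) the median was 0.01. Differences are therefore given under both scalings. Differences are CKO minus control on the log2(FPKM + 0.1) scale with the standard error (SE), adjusted P are from limma with Benjamini-Hochberg adjustment over all genes tested, and exact P are from a two-sided exact permutation test over all 924 assignments of the mice, which cannot give less than 0.00216. In bulk muscle, fewer cells of a type and less RNA per cell cannot be told apart.

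The targeted gene, Smyd1, was 37.4 ± 5.64 FPKM in controls and 34.1 ± 4.36 in CKOs. The difference was -0.13 (SE 0.12, limma adjusted P = 0.545, exact permutation P = 0.290) as deposited, with 3 CKOs below the lowest control. After scaling it was -0.32 (SE 0.08, limma adjusted P = 0.0797, exact permutation P = 0.00433), with 5 CKOs below the lowest control. The group ranges overlapped in both. These values do not check the genotypes, because FPKM were given per gene and which exons the floxed allele loses was not given in the sources used here.

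All 10 genes passed the low-value filter of 0.1 FPKM in 6 libraries. With FPKM as deposited, Dnm2 alone rose in CKOs past an adjusted P of 0.05 in limma, against 2.02% of all genes tested, and 0 of the 10 fell, against 0.268%. At an unadjusted P below 0.05, 4 were higher (Mtm1, Mtmr4, Dnm2 and Bin1), against 18.1% of all genes, and 0 were lower, against 1.76%. After median-ratio scaling 0 passed the adjusted threshold in limma in either direction, against 0.764% higher and 0.709% lower over the table. At the unadjusted threshold 3 were then higher (Mtm1, Dnm2 and Bin1), against 6.62%, and Ptpla was lower, against 7.44%. The groups overlapped in every member under both scalings. Complete separation was found in 2.23% of all genes above and 0.189% below the controls as deposited, and in 0.788% and 0.74% after scaling.

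**Figure D1:**
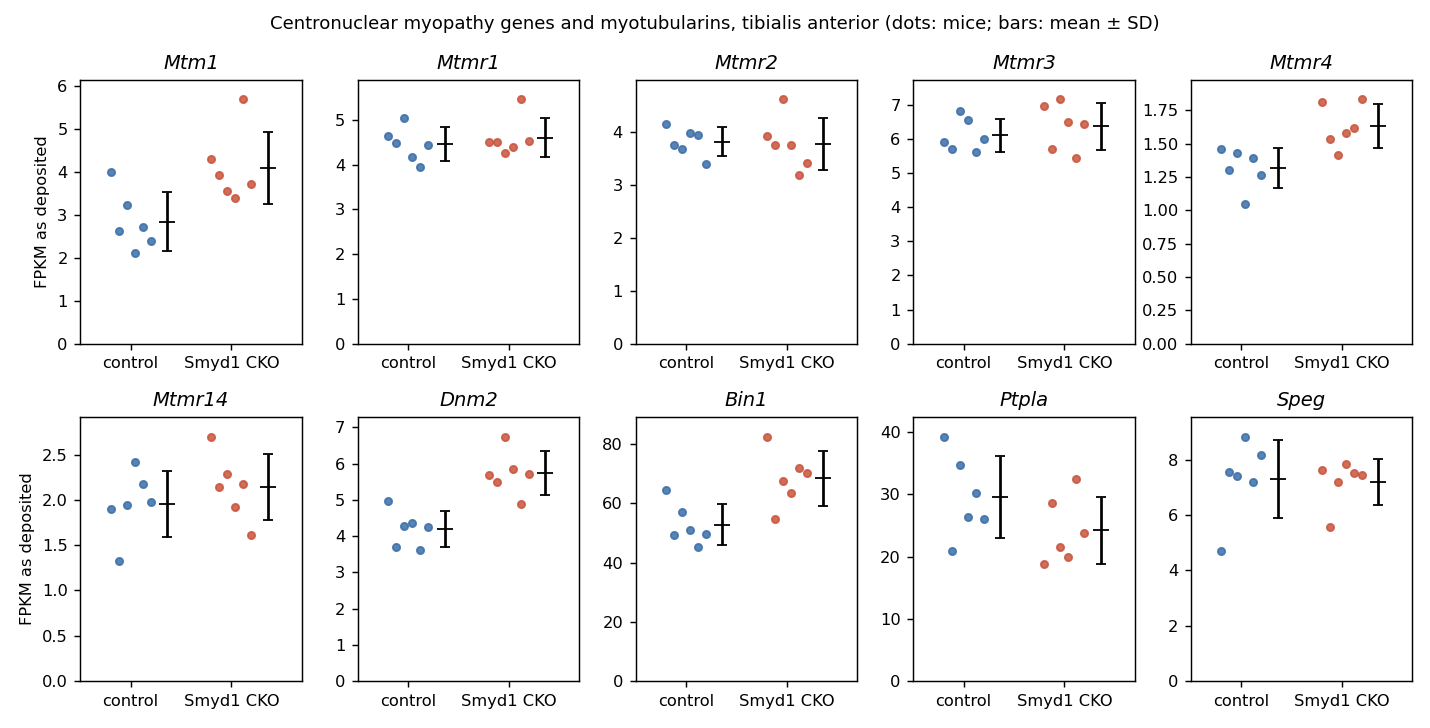
FPKM as deposited (y axis, from 0) of each of the 10 genes in the 6 controls and 6 Smyd1 CKOs (x axis), with 1 dot per mouse and bars for mean ± SD. In Dnm2 and Mtmr4, 5 of 6 CKO dots lie above the highest control, whereas the groups lie over each other in Mtmr1, Mtmr2, Mtmr3, Mtmr14 and Speg.

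The control levels of the 10 genes spanned 40.1-fold. FPKM are per transcript length, so levels were set side by side between genes, but the order is approximate. Reads with several locations in the genome were dropped, and exons of Dnm2 and Bin1 overlap those of other genes. Bin1 stood highest at 52.8 FPKM, above 98.1% of the genes tested, followed by Ptpla at 29.6 FPKM, above 96.6%. Bin1 exceeded Ptpla in 6 of 6 controls and 6 of 6 CKOs, and Ptpla exceeded Speg (7.32 FPKM) likewise. Below Speg came Mtmr3 (6.11), Mtmr1 (4.45), Dnm2 (4.20), Mtmr2 (3.81), Mtm1 (2.84), Mtmr14 (1.96) and Mtmr4 (1.32 FPKM). Among these neighbours the control ranges overlapped except between Mtmr3 and Mtmr1. Mtmr1 and Dnm2 could not be ordered, nor could Dnm2 and Mtmr2, since the first exceeded the second in 4 of 6 controls. In CKOs Mtmr1 exceeded Dnm2 in 1 of 6 mice, and Mtmr2 exceeded Mtm1 in 2 of 6 CKOs against 6 of 6 controls.

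Mtm1, the phosphatase lost in X-linked myotubular myopathy, had the largest positive difference of the 10 genes under both scalings. Its FPKM in controls 1 to 6 were 3.99, 2.61, 3.23, 2.095, 2.71 and 2.38, and in CKOs 1 to 6 they were 4.29, 3.92, 3.54, 3.38, 5.68 and 3.72. Every CKO lay above 5 of the 6 controls, and control 1 lay above 4 of the 6 CKOs. The means were 2.84 ± 0.68 and 4.09 ± 0.84 FPKM, a difference of 0.52 (SE 0.16, 95% interval 0.18 to 0.86) that missed the adjusted threshold in limma (adjusted P = 0.104, exact permutation P = 0.0152). Median-ratio scaling reduced the difference to 0.34 (SE 0.13, 95% interval 0.05 to 0.62, limma adjusted P = 0.261, exact permutation P = 0.0173), with 3 CKOs above the highest control. With each library left out in turn, 1 of 12 fits as deposited passed in limma, that without control 1 (adjusted P = 0.0195). The adjusted P of the others ran up to 0.213. Over the whole table, genes higher at the adjusted threshold numbered 257 with all libraries and 1067 without control 1.

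Its neighbour on the X chromosome, Mtmr1, a close relative, gave a narrower spread and little difference. Controls held 4.63, 4.48, 5.05, 4.18, 3.96 and 4.43 FPKM and CKOs 4.49, 4.50, 4.25, 4.39, 5.46 and 4.52. CKO 5 stood alone, and the other 5 CKOs fell inside the control range. The difference was 0.05 (SE 0.10, 95% interval -0.16 to 0.26, limma adjusted P = 0.822) and turned to -0.14 (SE 0.09, 95% interval -0.34 to 0.06, adjusted P = 0.558) after scaling.

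Mtmr2, the phosphatase mutated in a demyelinating neuropathy, was nearly level as deposited. Controls held 4.14, 3.75, 3.68, 3.97, 3.94 and 3.38 FPKM, and CKOs 3.92, 3.75, 4.61, 3.74, 3.18 and 3.40. As deposited, the control values varied least of the 10 genes, with a coefficient of variation of 7.03%, against 24.0% for Mtm1. After scaling the controls were 4.03 ± 0.356 for Mtmr2 and 55.4 ± 3.11 for Bin1, which then varied less relative to its mean. The Mtmr2 difference was -0.02 (SE 0.11, 95% interval -0.25 to 0.21, limma adjusted P = 0.927) as deposited. Scaling moved it to -0.21 (SE 0.11, 95% interval -0.43 to 0.02, limma adjusted P = 0.402, exact permutation P = 0.0368), with 4 CKOs below the lowest control.

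Mtmr3 and Mtmr4 are paralogs that act on endosomes and autophagosomes. Mtmr3 held 5.92, 5.72, 6.82, 6.57, 5.63 and 6.01 FPKM in controls and 6.97, 5.71, 7.17, 6.50, 5.45 and 6.44 in CKOs. Its groups covered nearly the same range, with a difference of 0.06 (SE 0.10, 95% interval -0.15 to 0.27, limma adjusted P = 0.774) that turned to -0.13 (SE 0.10, 95% interval -0.33 to 0.08, adjusted P = 0.610) after scaling. Mtmr4 held 1.46, 1.30, 1.43, 1.05, 1.39 and 1.27 FPKM in controls and 1.81, 1.53, 1.41, 1.58, 1.62 and 1.83 in CKOs. Its CKO values lay above the highest control in all mice but CKO 3, and the difference was 0.29 (SE 0.12, 95% interval 0.03 to 0.55, limma adjusted P = 0.208, exact permutation P = 0.00649). After scaling 2 CKOs remained above the highest control and the difference was 0.11 (SE 0.11, 95% interval -0.12 to 0.35, limma adjusted P = 0.726, exact permutation P = 0.156).

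Mtmr14, also called Jumpy, is the most distant of the 6 phosphatases by its signature and has been linked to centronuclear myopathy as a modifier. Controls held 1.90, 1.32, 1.95, 2.42, 2.17 and 1.98 FPKM, and CKOs 2.70, 2.14, 2.29, 1.92, 2.18 and 1.61. The lowest value was in a control and the highest in a CKO, with the rest mixed. The difference of 0.13 (SE 0.15, 95% interval -0.20 to 0.45, limma adjusted P = 0.663) turned to -0.05 (SE 0.15, 95% interval -0.37 to 0.26, adjusted P = 0.921) after scaling.

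Dnm2, the ubiquitous dynamin whose mutations cause the dominant form of the disease, was the member past the adjusted threshold. It held 4.98, 3.71, 4.27, 4.35, 3.62 and 4.26 FPKM in controls and 5.70, 5.48, 6.75, 5.86, 4.88 and 5.73 in CKOs. Separation was complete except that control 1 lay just above CKO 5. The means were 4.20 ± 0.491 and 5.73 ± 0.606 FPKM, 36.5% higher in CKOs, a difference of 0.44 (SE 0.11, 95% interval 0.21 to 0.67, limma adjusted P = 0.0460, exact permutation P = 0.00433). In scaled values 5 of 6 CKOs still lay above the highest control, and the difference was 0.26 (SE 0.09, 95% interval 0.06 to 0.46, limma adjusted P = 0.217, exact permutation P = 0.00866). The adjusted call as deposited held without control 1 (limma adjusted P = 0.0123) and without CKO 5 (0.0286), and was lost when any of the other 10 libraries was left out (limma adjusted P 0.0547 to 0.114). Exons of Dnm2 overlap those of Tmed1, on the opposite strand, by up to 207 bases of 5330. Whether fragments were counted by strand is not stated. Tmed1 held 3.74 ± 0.733 FPKM in controls and 5.14 ± 1.09 in CKOs (log2 difference 0.44, limma adjusted P = 0.135), and its part in the Dnm2 values was not tested.

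Bin1, or amphiphysin 2, shapes T-tubules and binds dynamin. Controls held 64.6, 49.3, 56.9, 50.9, 45.1 and 49.8 FPKM, and CKOs 82.6, 54.7, 67.6, 63.6, 71.9 and 70.2. CKOs 1, 3, 5 and 6 lay above every control, and CKO 2 lay below controls 1 and 3. The means were 52.8 ± 6.94 and 68.4 ± 9.24 FPKM, a difference of 0.37 (SE 0.11, 95% interval 0.13 to 0.62, limma adjusted P = 0.0976, exact permutation P = 0.0108). Scaled values were less scattered, and 5 CKOs lay above the highest control, while the difference was 0.19 (SE 0.08, 95% interval 0.01 to 0.36, limma adjusted P = 0.323, exact permutation P = 0.0173). With each library left out in turn, 1 of 12 fits as deposited passed in limma, that without control 1 (adjusted P = 0.0228). The adjusted P of the others ran up to 0.227. Without control 1, 1067 genes were higher over the whole table, against 257 with all libraries. Bin1 exons overlap A830052D11Rik, on the opposite strand, by up to 256 bases of 4117, and that gene was near 0 in both groups (0.262 and 0.438 FPKM).

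**Figure D2:**
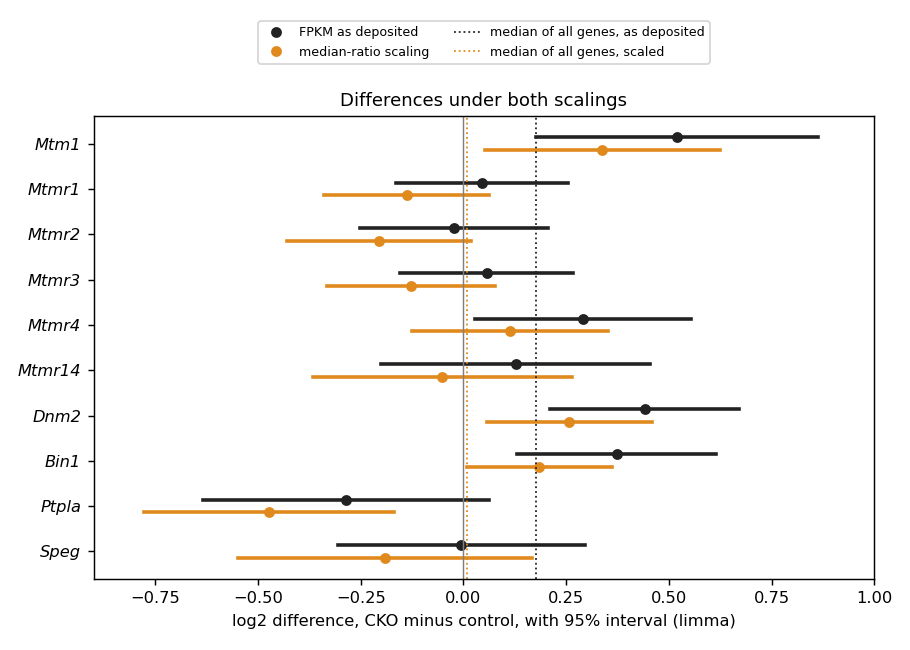
Log2 difference, CKO minus control, of each gene (x axis) with its 95% limma interval, for FPKM as deposited (black) and after median-ratio scaling (orange). Dotted lines mark the median of all genes tested, 0.18 and 0.01. Scaling moved every gene to the left, and the intervals of Mtm1, Dnm2 and Bin1 stayed above 0 while that of Ptpla came to lie below it.

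Ptpla, the muscle-enriched dehydratase of very-long-chain fatty acid synthesis, was the member with the most negative difference. Controls held 39.3, 20.9, 34.7, 26.3, 30.2 and 26.1 FPKM, and CKOs 18.8, 28.6, 21.5, 20.0, 32.5 and 23.8. CKOs 2, 3, 5 and 6 fell within the control range, CKO 3 just above the lowest control, and CKOs 1 and 4 lay below every control. The means were 29.6 ± 6.63 and 24.2 ± 5.33 FPKM, a difference of -0.29 (SE 0.16, 95% interval -0.63 to 0.06, limma adjusted P = 0.341, exact permutation P = 0.149). After scaling the means were 30.8 ± 4.08 and 22.5 ± 5.27, 4 CKOs lay below the lowest control and the difference was -0.47 (SE 0.14, 95% interval -0.78 to -0.17, limma adjusted P = 0.126, exact permutation P = 0.0195). With each library left out in turn, 1 of 12 fits in scaled values passed in limma, that without CKO 5 (adjusted P = 0.0363). The adjusted P of the others ran up to 0.264. Without CKO 5, 199 genes were lower over the whole table after scaling, against 90 with all libraries.

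Speg, the triad kinase, held 4.72, 7.55, 7.43, 8.85, 7.19 and 8.19 FPKM in controls and 7.63, 5.56, 7.20, 7.85, 7.55 and 7.47 in CKOs. Control 1 lay below all other libraries, and CKO 2 was lowest of its group. The difference was -0.01 (SE 0.14, 95% interval -0.31 to 0.30, limma adjusted P = 0.988) and -0.19 (SE 0.17, 95% interval -0.55 to 0.17, adjusted P = 0.682) after scaling. Without control 1 it was -0.12 as deposited and -0.36 after scaling (limma adjusted P = 0.0789). The adjusted P after scaling ran up to 0.837 with other libraries left out.

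**Figure D3:**
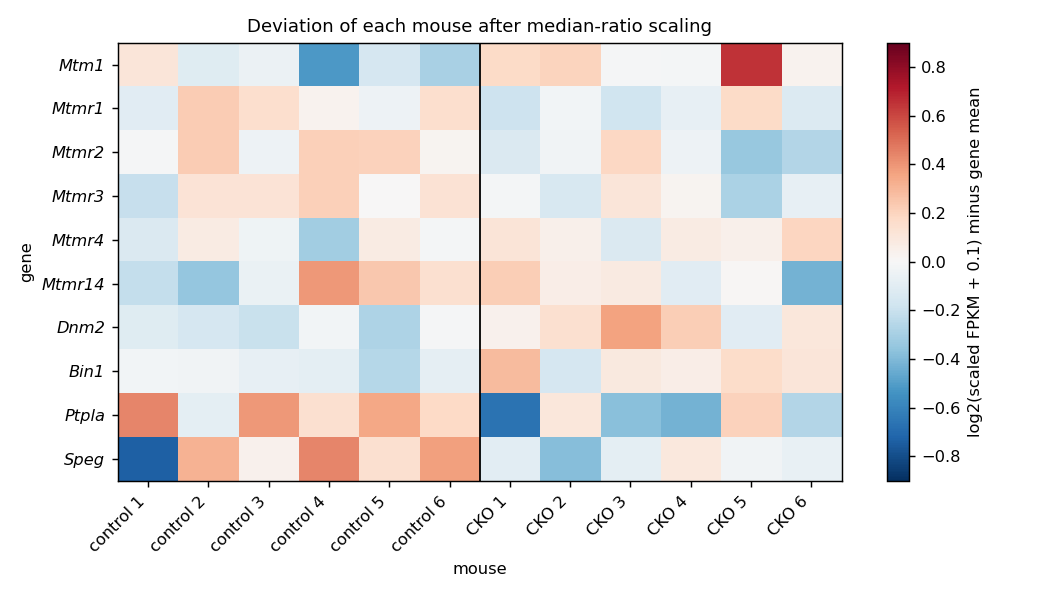
Deviation of each mouse (columns, controls left of the line) from the gene's mean over the 12 mice, as log2(scaled FPKM + 0.1), with red above and blue below the mean. Dnm2 was below its mean in 6 of 6 controls and above it in all CKOs but CKO 5, and the deepest blue is Speg in control 1 (-0.73).

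No mouse was high or low in all members. As deposited, control 1 was the highest control for 6 of the 10 genes (Mtm1, Mtmr2, Mtmr4, Dnm2, Bin1 and Ptpla) and the lowest for Speg, and it had the largest control size factor, 1.11. After scaling it was the highest control for 3 genes and the lowest for 3. CKO 5 was the highest CKO for Mtm1, Mtmr1 and Ptpla and the lowest for Mtmr2, Mtmr3 and Dnm2 under both scalings. Control 1 also stood apart in its summed markers of fibroblasts, at 654 FPKM against at most 217 in other controls, and of macrophages, at 11.6 against at most 4.91. The part of these cells in its values was not tested.

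The scaling of a library cancels in a ratio of 2 members within a mouse except through the 0.1 added to each FPKM, and 3 such ratios were compared. With no pseudocount, an alternative chosen after the values were seen, the differences were 0.086 for Mtm1 to Dnm2, -0.077 for Bin1 to Dnm2 and -0.40 for Mtmr14 to Mtm1. The log2 ratio of Mtm1 to Dnm2 was -0.57 ± 0.28 in controls and -0.49 ± 0.39 in CKOs, a difference of 0.08 (exact permutation P = 0.712, adjusted P = 0.712). CKO 5 was the single library with more Mtm1 than Dnm2 FPKM. The log2 ratio of Bin1 to Dnm2 was 3.62 ± 0.09 and 3.55 ± 0.25, a difference of -0.07 (exact permutation P = 0.528, adjusted P = 0.712), with 2 CKOs above and 3 below every control. The log2 ratio of Mtmr14 to Mtm1 was -0.51 ± 0.47 and -0.90 ± 0.29, a difference of -0.39 (exact permutation P = 0.115, adjusted P = 0.344). It was below the control mean in 6 of 6 CKOs, and only control 4 had more Mtmr14 than Mtm1. Thus 0 of the 3 ratios passed 0.05, and 6 mice a group leave differences of this size within the spread between mice.

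**Figure D4:**
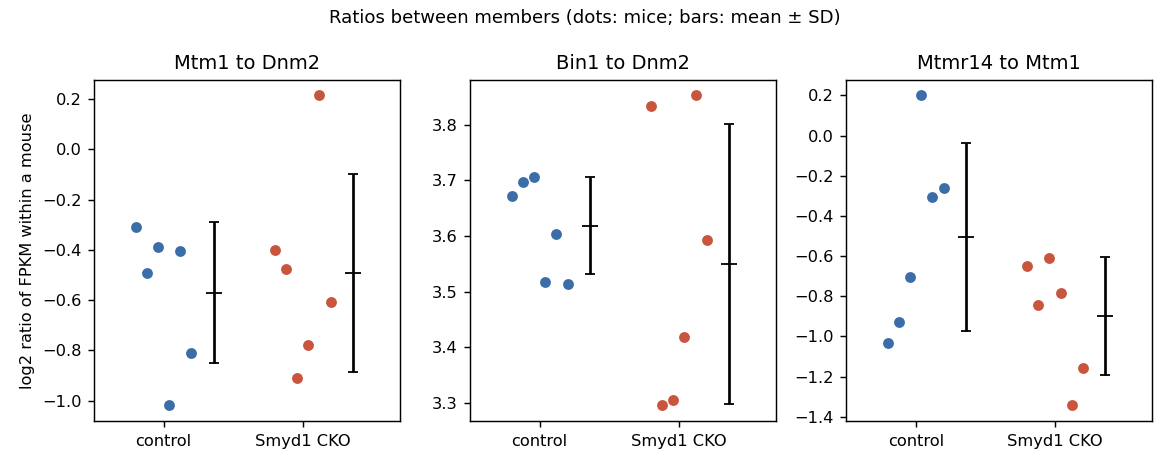
Log2 ratio of the FPKM of 2 genes within each mouse, with 0.1 added to each FPKM (y axis, a separate range in each panel), with 1 dot per mouse and bars for mean ± SD. Bin1 to Dnm2 ratios lay between 3.51 and 3.71 in controls and between 3.29 and 3.85 in CKOs, and the Mtmr14 to Mtm1 ratio of every CKO was below the control mean of -0.51.

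Genes that work with the members were counted in lists by role. In the lists that follow, 0 genes passed the adjusted threshold in limma under either scaling. Of all genes tested, 2.02% were higher and 0.268% lower at that threshold as deposited, and 0.764% and 0.709% after scaling. At the unadjusted threshold 18.1% were higher and 1.76% lower as deposited, and 6.62% and 7.44% after scaling. Among 8 other myotubularins (Sbf1, Sbf2, Mtmr6, Mtmr7, Mtmr9, Mtmr10, Mtmr11 and Mtmr12), several of which are inactive partners of active ones, 0 were higher or lower at an unadjusted P below 0.05 under either scaling. Their median difference was 0.09, like the 0.09 of the 10 members and below the 0.18 of all genes, and it was -0.10 after scaling, against -0.09 and 0.01. Mtmr9, with the smallest P among them, had a difference of 0.39 (SE 0.20, limma adjusted P = 0.284), followed by Sbf2 at 0.18 and Sbf1 at 0.08. After scaling these were 0.22, 0.0022 and -0.098.

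The kinases that make the lipids on which myotubularins act, and the partners in their complexes, were tested as a list of 10 genes. At the unadjusted threshold 4 were higher as deposited (Pik3r4, Uvrag, Pik3c2a and Pik3c2b), against 18.1% of all genes, and 0 lower, against 1.76%. The median was 0.22. After scaling Uvrag alone was higher, against 6.62% of all genes, with a median of 0.05. Uvrag, a subunit of the Vps34 kinase complex of endosomes, held 1.47 ± 0.297 FPKM in controls and 2.28 ± 0.504 in CKOs (0.60, SE 0.17, limma adjusted P = 0.0715, and 0.42 after scaling, adjusted P = 0.199). The class II kinase Pik3c2b differed by 0.45 (SE 0.14) and Pik3r4, the regulatory subunit of Vps34, by 0.37 (SE 0.13), and after scaling by 0.27 and 0.20. Of other genes linked to centronuclear myopathy, Ryr1 and Zak were tested. Zak, a stress-activated kinase, held 53.5 ± 3.23 FPKM in controls and 71.8 ± 11.5 in CKOs (0.41, SE 0.11, limma adjusted P = 0.0582, and 0.22 after scaling, adjusted P = 0.330). Ryr1, the calcium release channel of the triad, differed by 0.20 (SE 0.19, limma adjusted P = 0.557) and by 0.01 after scaling.

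Among dynamins, amphiphysins and endophilins 9 of 12 genes were tested, and the endophilin Sh3glb2 was higher at the unadjusted threshold as deposited (0.42, SE 0.16, limma adjusted P = 0.174, and 0.24 after scaling), with 0 higher after scaling. Of all genes tested, 18.1% were higher at that threshold as deposited, and 6.62% were higher and 7.44% lower after scaling. Sh3gl1 differed by 0.28 (0.11 after scaling) and Amph, the paralog of Bin1, by -0.25 (-0.36 after scaling) at 0.161 and 0.116 FPKM. The medians were 0.05 and -0.14. For the elongation of very-long-chain fatty acids 9 of 12 genes present were tested, and 2 were higher at the unadjusted threshold as deposited (Ptplb and Elovl1) and 1 after scaling (Ptplb), with medians of 0.13 and -0.04. Ptplb, the paralog of Ptpla, held 0.121 ± 0.0511 FPKM in controls and 0.294 ± 0.142 in CKOs (0.80, SE 0.26, limma adjusted P = 0.117, and 0.68 after scaling, adjusted P = 0.236), levels far below those of Ptpla. Elovl1 differed by 0.52 and Ptplad1 by 0.23 as deposited, and by 0.35 and 0.046 after scaling. Of 5 relatives and partners of Speg, 2 were higher at the unadjusted threshold as deposited, with medians of 0.18 and -0.01. They were the intermediate filament protein Des (0.49, SE 0.13, limma adjusted P = 0.0634) and Obsl1 (0.49, SE 0.14, limma adjusted P = 0.0881). After scaling Des was higher (0.30) and Mylk2 lower (-0.45, against -0.26 as deposited), and the Obsl1 difference of 0.30 missed the unadjusted threshold.

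**Figure D5:**
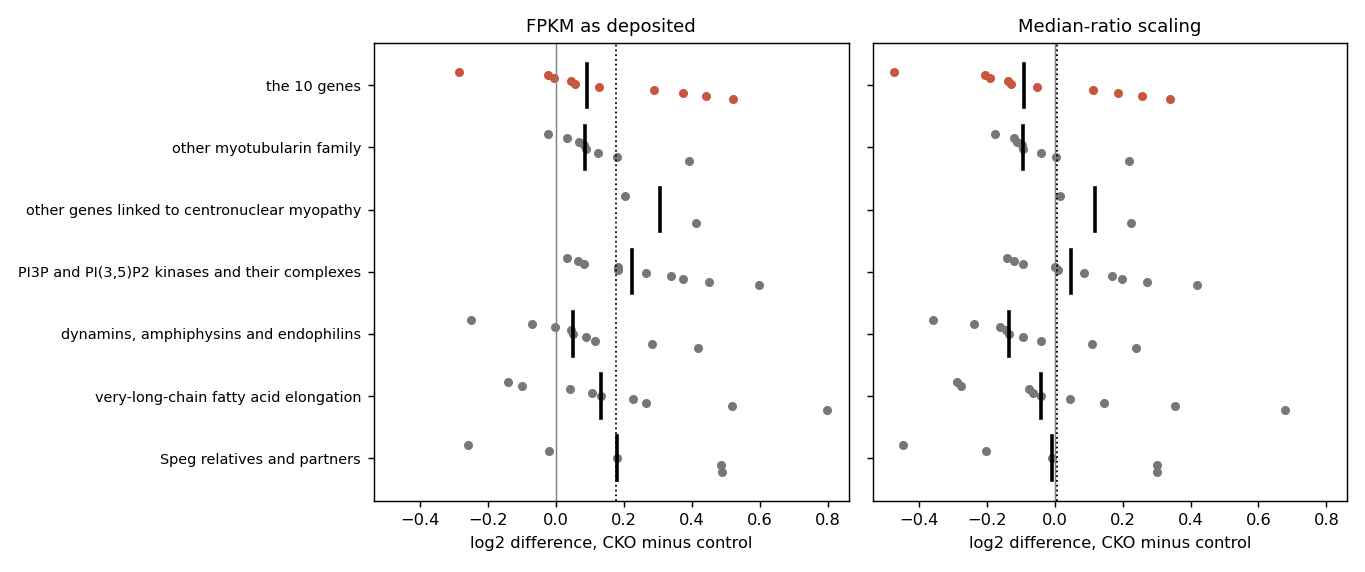
Log2 difference, CKO minus control (x axis), of the 10 genes (red) and of the genes tested in each list (grey), with 1 dot per gene and a black bar at the list's median, as deposited (left) and after median-ratio scaling (right). The dotted line is the median of all genes tested (0.18 and 0.01). The medians of the members and of the other myotubularins lie to its left in both panels. So do those of the dynamin, amphiphysin and endophilin list and of the fatty acid elongation list.

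Markers of myofiber types and of other cells were read beside these results, with calls at an unadjusted P below 0.05 in limma. Of all genes tested, 18.1% were called higher and 1.76% lower as deposited, and 6.62% and 7.44% after scaling. Summed fast-fiber markers were 21846.5 to 37650 FPKM in controls and 23718 to 29731 in CKOs, by far the highest of the marker sums. Of 7 such markers 1 was higher and 1 lower as deposited, and 1 was higher and 4 lower after scaling. Slow-fiber markers were 18.6 to 51.9 FPKM in controls and 26.6 to 292 in CKOs, where CKOs 1, 3 and 6 held the most. Of these 7 markers 6 were higher as deposited, and 5 were higher and 1 lower after scaling. The satellite cell markers Pax7 and Myf5 were 0.300 to 0.961 FPKM in controls and 1.05 to 1.60 in CKOs, with 2 of 2 higher as deposited and 1 of 2 after scaling.

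Endothelial markers were 23.2 to 31.8 FPKM in controls and 21.9 to 38.9 in CKOs. Fibroblast markers were 170 to 654 in controls and 233 to 387 in CKOs, but the control maximum was control 1. No CKO lay above control 1. The other 5 controls reached 217 FPKM, and 6 of 6 CKOs lay above them as deposited and 5 of 6 after scaling. Setting control 1 aside was a comparison chosen after the values were seen. Macrophage markers were 2.97 to 11.6 in controls and 4.64 to 6.99 in CKOs, and no CKO lay above control 1. With control 1 set aside in the same way, 5 of 6 CKOs lay above the other 5 controls under both scalings. Those controls reached 4.91 FPKM as deposited. The sums in controls and CKOs were 3.33 to 8.02 and 5.78 to 11.6 for Schwann cells, 0.437 to 1.06 and 0.639 to 2.08 for adipocytes, and 12.8 to 49.3 and 18.5 to 39.2 for red blood cells. As deposited 1 of 4 fibroblast, 2 of 4 Schwann and 1 of 4 adipocyte markers were higher, against 1, 0 and 0 after scaling. The shares of all genes called higher were 18.1% as deposited and 6.62% after scaling. Of the endothelial, macrophage and red blood cell markers 0 were called under either scaling. No marker was listed at 0 in all 12 libraries. The part of these cells in the members' differences was not tested.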

How the data were processed

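Total RNA of 12 tibialis anterior muscles was depleted of ribosomal RNA and sequenced on the Illumina HiSeq platform. The authors trimmed adapters, aligned reads with bowtie2 and TopHat2 2.0.10, dropped reads with more than 1 location in the genome, and obtained the deposited FPKM from Cufflinks 2.1.1 (versions and the mm9 build per the submitters' processing notes, annotation and strand setting not given in the sources used here). Dropping such reads may lower genes with close copies. The authors' DESeq test needs counts, which were not used here.

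Each file listed 23950 symbols, of which 27 had turned into dates and were left out. Groups were compared with limma 3.58.1 (R 4.3.3, intensity trend, no covariate) on log2(FPKM + 0.1) for the 12695 genes that reached 0.1 FPKM in 6 or more of the 12 libraries, with Benjamini-Hochberg adjustment and a threshold of 0.05. Size factors were median ratios to the geometric mean over 12178 genes above 0 in all libraries. Relative depth was the most common ratio of control 1 to a library, over genes above 0 and under 0.15 FPKM in both. No counting interval can be given. The code was tested on simulated data. Libraries with the same replicate number did not deviate together (correlations -0.09 to 0.16), so no block was used. Alternatives were quantile normalization, no filter or one at 1 FPKM, log2(FPKM + 1), no trend, sample weights, the replicate block and each library left out, with ratios also taken with no pseudocount.

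The members and lists were chosen with earlier results of these data known. Named genes are the 10 members, Smyd1 and, from each list, genes past the adjusted threshold or otherwise up to 3 with the smallest P. Other genes are named as part of a count, as overlapping a member or, for Ttn and Ccdc78, as listed genes that were not tested. Symbols were matched to GENCODE M21 (GRCm38), Ptpla as Hacd1.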

Additional observations from a re-analysis of the deposited data

Results flagged for a closer look

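In 28 sets of 6 values (the 10 genes, the targeted gene and the 3 ratios, in each group), 2 had a mouse far from the other 5 by Dixon's test at the 95% level, which chance gives in about 1 of 20 sets. CKO 5 held 5.46 FPKM of Mtmr1, against 4.25 to 4.52 in the other CKOs. CKO 2 held 5.56 FPKM of Speg, against 7.20 to 7.85 in the other CKOs.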

How the results depend on the processing

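Most values depended on the scaling. Of the 10 genes, 1 (Dnm2) was higher at an adjusted P below 0.05 as reported, where 257 of all 12695 genes tested were. The number was 0 under median-ratio scaling, quantile normalization and the block with scaling. It was also 0 with no filter (Dnm2 limma adjusted P = 0.0515), no trend (0.0744) and the replicate block (0.0503). With sample weights it was 3 (Mtm1, Dnm2 and Bin1), where 1400 of all 12695 genes were higher. The number at an unadjusted P below 0.05 was 2 higher under the block with scaling, where 855 of all 12695 genes were. It was 1 lower (Ptpla) under median-ratio scaling, quantile normalization, sample weights and the block with scaling. All genes lower in these fits numbered 944, 837, 318 and 947. The Mtmr1 difference reversed to -0.14, -0.12 and -0.14 under median-ratio scaling, quantile normalization and the block with scaling, Mtmr3 to -0.13, -0.095 and -0.13 and Mtmr14 to -0.052, -0.063 and -0.052, and Mtmr2 reversed to 0.015 with sample weights. The cause was not tested.

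Over the 12695 genes tested, those higher at the adjusted threshold numbered 97 with median-ratio scaling and 101 with quantile normalization. They numbered 1400 with sample weights and 91 with the block and scaling. With no filter, 170 of 17922 genes tested were higher. Genes lower numbered 90, 68, 115 with weights and 83 with the block and scaling. At the unadjusted threshold the higher genes numbered 841, 810, 3704 with weights and 855, and the lower ones 944, 837 and 947. The labels do not say whether mice with the same replicate number are paired. The block alone gave 272 higher and 40 lower at the adjusted threshold.

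With each library left out in turn, whole-table counts at the adjusted threshold ran from 84 to 1067 higher and 18 to 69 lower as deposited (highest without control 1, lowest without CKO 1), and from 46 to 180 and 35 to 199 after scaling. At the unadjusted threshold they ran from 1738 to 3428 and 196 to 320, and from 661 to 1091 and 780 to 1155. Of the 10 genes, 0 to 3 were higher at the adjusted threshold as deposited (3 without control 1) and 0 after scaling, and 0 were lower as deposited and 0 to 1 after scaling. At the unadjusted threshold 3 to 4 were higher and 0 to 1 lower as deposited (Ptpla without control 2 or CKO 5), and 1 to 3 and 1 to 2 after scaling. Differences ran from -0.0038 to 0.082 for Mtmr1 (-0.19 to -0.11 after scaling), -0.081 to 0.023 for Mtmr2 (-0.26 to -0.16), 0.02 to 0.10 for Mtmr3 (-0.18 to -0.08), 0.03 to 0.20 for Mtmr14 (-0.13 to 0.03) and -0.12 to 0.067 for Speg (-0.36 to -0.12). Log2 ratios differed by -0.06 to 0.16 for Mtm1 to Dnm2, -0.13 to -0.02 for Bin1 to Dnm2 and -0.50 to -0.25 for Mtmr14 to Mtm1. A pseudocount of 1 gave 0.036, -0.0063 and -0.32 for these ratios. Dnm2 kept an unadjusted P below 0.05 in 12 of 12 such fits under both scalings, Mtm1 in 12 and 10, Bin1 in 12 and 4, Mtmr4 in 8 and 0, and Ptpla in 2 and 12. Read counts are not known, so depth behind the low values of Mtmr4, Mtmr14 and Ptplb could not be weighed.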

Other observations

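Ttn, the giant sarcomeric protein gene that is also linked to centronuclear myopathy, was listed at 0 FPKM in 8 of 12 libraries and reached 871 FPKM in a control and 696 in a CKO, so no difference is given for it. Ccdc78 was below the filter, with at most 0.0951 FPKM in any library. Ryr1, like Speg, was lowest among controls in control 1, at 59.2 FPKM against 96.2 to 137 in the other controls, a comparison chosen after its values were seen.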
